A study of Mus musculus with 6 samples.

Results

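Respiratory complex I subunits are described here across 6 libraries labelled as mouse lymphoma cells with and without the miR-17~92 microRNA cluster. The members are the protein-coding genes with symbols of the form Ndufa, Ndufb, Ndufc, Ndufs or Ndufv followed by a number, together with Ndufab1, and the assembly factors named Ndufaf are left out. RefSeq lists 38 such genes, of which 37 have a row among the 24885 rows of the deposited count table, and Ndufb1 is not analysed here. By their labels the cells were Eµ-Myc B-cell lymphoma cells, in which a Myc transgene driven by an immunoglobulin enhancer is active in the B lineage, and all of them carried Cre-ERT2 (Cre fused to a receptor domain, inactive until 4-hydroxytamoxifen, 4-OHT, is added) and homozygous floxed alleles of the cluster (miR-17~92 fl/fl). The 3 fl libraries came from floxed cells. The 3 del libraries came from cells that had been exposed to 250 nM 4-OHT for 4 days and then subcloned to obtain cells without the cluster. Both were grown for 48 hours on irradiated Ink4a-null embryonic fibroblasts before total RNA was taken. Whether the 3 libraries of each group are separate cultures or clones is not in the labels, so the p-values reflect only how far these libraries differ, and that can be technical. Deletion, 4-OHT exposure and subcloning cannot be told apart in this design.

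Complex I is the NADH dehydrogenase of the inner mitochondrial membrane and the entry point of most electrons into the respiratory chain. Its matrix arm oxidises NADH in the N module and passes the electrons along iron-sulfur clusters to ubiquinone in the Q module, and its membrane arm pumps protons. A set of core subunits conserved from bacteria does the chemistry, some encoded in the nucleus and the rest in mitochondrial DNA, and the accessory subunits around them are needed for assembly and stability. Proliferating lymphoma cells use the complex to reoxidise the NADH of the tricarboxylic acid cycle.

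Total counts ranged from 6554423 to 9580630 among fl libraries and from 2121796 to 3738720 among del libraries, so depth goes with the group. The 37 rows together took 0.803% to 0.891% of the counts of an fl library and 0.479% to 0.491% of those of a del library, with 10162 counts in the shallowest. The host transcript Mir17hg was at 252, 263 and 262 CPM in fl and 167, 152 and 206 CPM in del (CPM, the usual depth-scaled count unit, here on library totals adjusted with TMM factors). The log2 fold change was -0.56 ± 0.15 (SE), adjusted p = 0.00844. That gene ends past the last microRNA of the cluster, and its 3' tags do not check the deletion. Markers of the labelled cell type were low in the fl libraries: the B lineage markers Cd79b and Ebf1 were at 2.12 ± 0.465 and 0.263 ± 0.281 CPM in fl (SD, n = 3 here and below) and at 171 ± 13.4 and 113 ± 28.0 CPM in del. Summed over 10 B lineage markers the libraries spanned 38.3 to 46.1 CPM in fl and 748 to 925 CPM in del, with Igll1 at 0 in fl. Blnk, at 26.0 ± 2.84 CPM, and Cd79a, at 8.12 ± 1.03 CPM, made up most of the fl sum, and Ms4a1 and Vpreb1 were under 1 CPM in both groups. The 9 myeloid markers spanned 54.1 to 67.4 CPM in fl and 1360.0 to 1425 CPM in del, with Mpo at 0 in both. Of 7 tested myeloid markers 5 were called higher and 2 lower, Elane (from 5.08 to 2.35 CPM, group means) and Cd14 (from 3.93 to 1.95 CPM). The libraries held the 5 epithelial markers at a sum of 371 to 411 CPM in fl and 0.474 to 1.32 CPM in del, with Cdh1 at 0 in both. Krt18, at 214 ± 14.0 CPM, and Epcam, at 170 ± 5.02 CPM, made up most of that fl sum. Krt8 was at 4.24 ± 1.36 CPM in fl and 0 in del, and Krt19 was under 1 CPM in both groups. The 8 fibroblast markers, which feeder cells would carry, spanned 0.115 to 3.37 CPM in fl and 2.90 to 12.8 CPM in del, with Lum at 0 in both, and the 5 T lineage markers stayed at 1.68 CPM or less in every library, with Cd3e and Cd8a at 0 in both. The sums of B lineage, myeloid and epithelial markers thus moved with the group beside every result below. The part of these markers in those results was not tested.

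Nearly all subunit genes were lower in del. Of the 37 members 36 had enough counts to be tested, and 34 of them fell and none rose (quasi-likelihood F test of edgeR, Benjamini-Hochberg adjusted p under 0.05 over 10260 genes). The single positive estimate was that of Ndufa10, and DESeq2 also called 34 members lower and none higher. Among all genes tested 65.1% were called, 32.6% lower and 32.5% higher. The members' median log2 fold change, del minus fl, was -0.93, against 0.00 for all genes, and 15 members were lower by at least 2-fold, as were 16% of all genes. Summed over the members, fl stood at 8825, 8867 and 8054 CPM and del at 4837, 4814 and 4740.2 CPM, with no overlap. For 34 members all 3 fl values lay above all 3 del values, an order that 35.7% of all genes showed. The member that was not tested, Ndufs5, had 1 count over the fl group and none over the del group, under the floor of 3 counts over a group, and no fold is given. Of the 7 nuclear core subunits 6 fell (median -0.80), and of 29 tested accessory subunits 28 fell (median -0.96). The accessory count includes Ndufa4, which is now placed in complex IV and also fell.

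The transcripts of these genes are short, and short transcripts were lower in del across the whole table. The longest annotated transcript had a median of 1094 nucleotides over the 36 tested members and 3399 over all 10010 tested genes with a length. Over the 1463 genes with transcripts between the members' shortest, 419 nucleotides, and their upper quartile, 1735 nucleotides, the median log2 fold change was -0.74. Of these genes 64% were called lower and 12.5% higher, and 24 of the 36 members had a log2 fold change below their median. After removing the trend of the fold change on transcript length and GC content, 15 members were lower and 4 higher, with a median of -0.34. Whether this trend comes from the RNA, the library preparation or the cells was not tested. In bulk RNA, fewer cells of a type and less RNA per cell cannot be told apart.

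**Figure D1:**
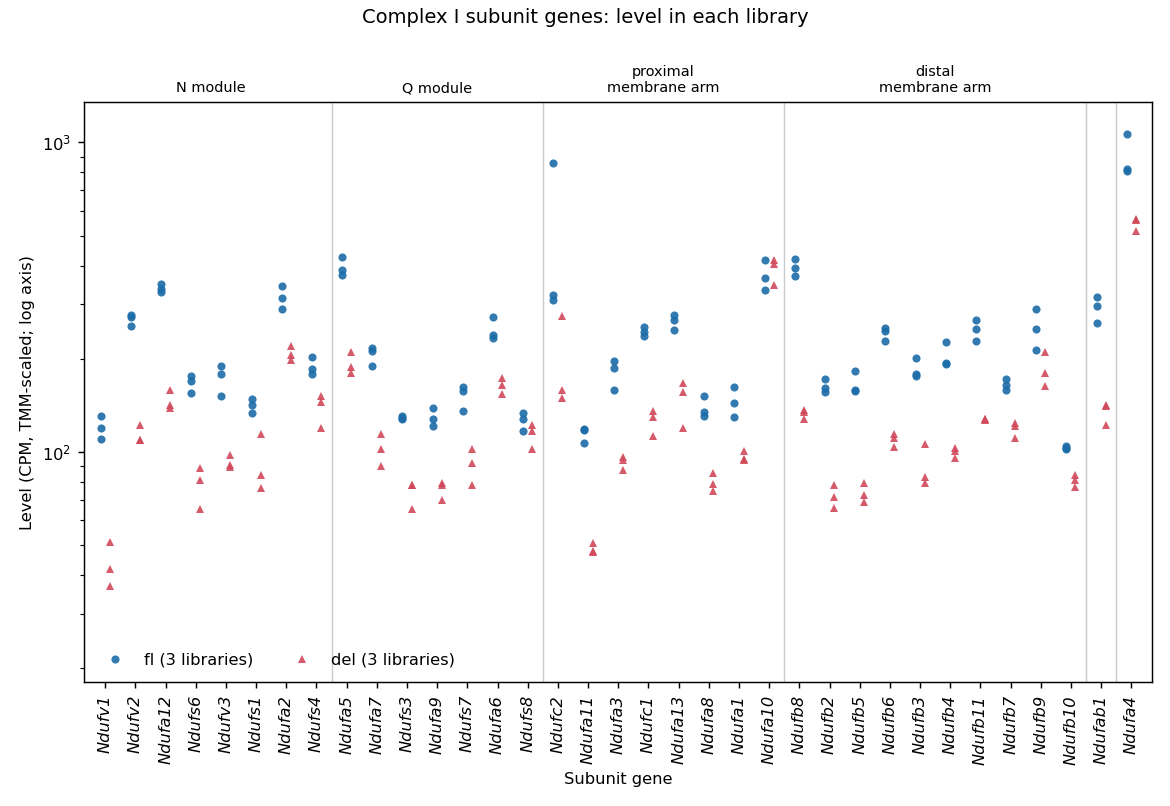
Level of 35 tested subunit genes in every library, in CPM on a log axis, grouped by the part of the complex, with the carrier protein Ndufab1 and the complex IV subunit Ndufa4 in the last 2 columns. Circles are the 3 fl and triangles the 3 del libraries: they overlap for Ndufs8 and Ndufa10 and separate for the others plotted, and Ndufc2 has 1 fl library at 859.8 CPM.

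The N module, at the tip of the matrix arm, holds the site where NADH is oxidised. All 8 of its tested members fell (median -0.99), beside 32.6% of all genes and 64% of genes of like transcript length lower. Ndufv1 (gene number 17995, chromosome 19 from 4007499 to 4012755 in GRCm38), the core subunit that binds NADH and the flavin, was at 119.8, 130.3 and 110.4 CPM in fl and at 51.1, 41.7 and 36.8 CPM in del, and the groups lay far apart (log2 difference -1.47 ± 0.16, adjusted p = 4.93e-05). Ndufv2, its core partner with an iron-sulfur cluster, was at 273, 277 and 255 CPM in fl and at 109, 109 and 122 CPM in del (log2 difference -1.24 ± 0.13, adjusted p = 4.18e-05). Both flavoprotein subunits were thus lower in every del library than in any fl library. Ndufs1, the largest core subunit and the carrier of further iron-sulfur clusters, was at 134, 141 and 148 CPM in fl and 84.3, 76.3 and 114 CPM in del. The third del library came nearest to fl (log2 difference -0.62 ± 0.17, adjusted p = 0.00983). Among the accessory members Ndufa12 had 349.8, 329.7 and 335 CPM in fl and 138, 142 and 158 CPM in del (log2 difference -1.21 ± 0.13, adjusted p = 5.14e-05). Ndufs6, a zinc-binding subunit, stood at -1.08 ± 0.15, Ndufv3 at -0.90 ± 0.14 and Ndufa2, a small subunit with a thioredoxin fold, at -0.60 ± 0.14 on the log2 scale. Ndufs4, whose loss in mice gives a model of Leigh syndrome, had 202, 185 and 178 CPM in fl and 119.6, 144 and 151 CPM in del (log2 difference -0.45 ± 0.14, adjusted p = 0.0204). That call was lost without fl replicate 1 (log2 fold change -0.40, adjusted p = 0.0537), fl replicate 2 (-0.45, adjusted p = 0.0533) or del replicate 1 (-0.35, adjusted p = 0.0699), and after removal of the length and GC trend (-0.08, adjusted p = 0.639).

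The Q module, where ubiquinone is reduced, held 7 genes that fell among 8 tested (median -0.78). Beside them stand 32.6% of all genes and 64% of genes of like transcript length lower. Ndufs7, a core subunit at the ubiquinone pocket, was at 136, 162 and 157 CPM in fl and at 91.9, 78.2 and 102 CPM in del (log2 difference -0.74 ± 0.15, adjusted p = 0.00199). Ndufs3, another core subunit of this module, had 127, 130.1 and 129 CPM in fl and 78.0, 78.2 and 65.4 CPM in del (log2 difference -0.80 ± 0.13, adjusted p = 0.000581). Ndufs8 (gene number 225887, chromosome 19 from 3908863 to 3912774), a core subunit that carries iron-sulfur clusters, was the exception. Its levels of 134, 128 and 117 CPM in fl and 122, 117 and 102 CPM in del overlapped, and it missed the threshold (log2 difference -0.15 ± 0.14, adjusted p = 0.348). After removal of the length and GC trend it was called higher (0.66, adjusted p = 0.00258). The accessory members Ndufa5 (-1.04 ± 0.14), Ndufa7 (-1.02 ± 0.14), Ndufa9 (-0.77 ± 0.13) and Ndufa6, which docks a carrier protein on the matrix arm (-0.60 ± 0.13), all fell. With that trend removed, Ndufs3 (-0.04, adjusted p = 0.796) and Ndufs7 (0.15, adjusted p = 0.41) lost their calls. So did Ndufa9 (-0.32, adjusted p = 0.0631), Ndufa7 (-0.37, adjusted p = 0.0503) and Ndufa6 (0.13, adjusted p = 0.414). Ndufs7 also lost its call in libraries thinned to equal depth (-0.46, adjusted p = 0.0961).

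**Figure D2:**
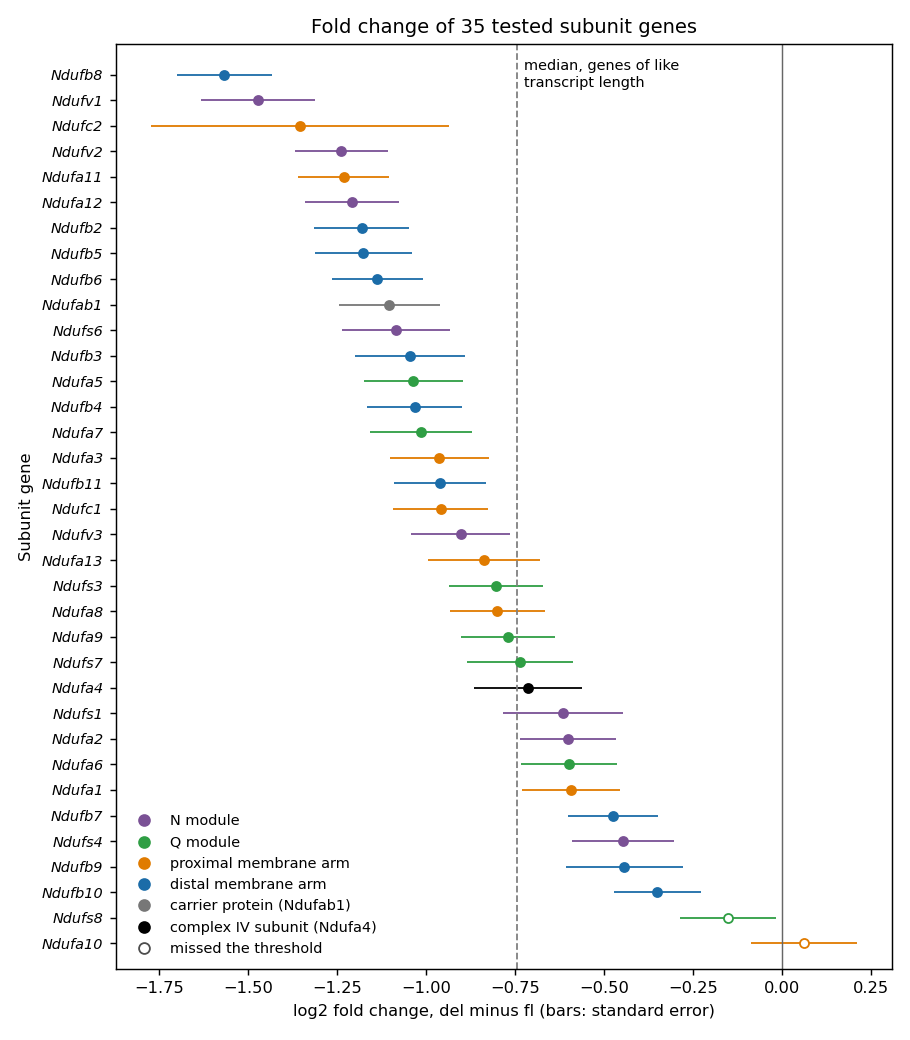
Log2 fold change (del minus fl) of 35 tested subunit genes with its standard error, coloured by the part of the complex, with hollow points for the genes that missed the threshold. The values run from -1.57 for Ndufb8 to 0.06 for Ndufa10, and the dashed line marks -0.74, the median of tested genes of like transcript length.

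The proximal part of the membrane arm, next to the matrix arm, held the member with the widest spread between fl libraries and the one with the highest fold change. Of 8 tested genes 7 fell (median -0.90), beside 32.6% of all genes and 64% of genes of like transcript length lower. Ndufa11 was at 107, 117 and 119 CPM in fl and 50.6, 47.8 and 47.6 CPM in del (log2 difference -1.23 ± 0.13, adjusted p = 3.73e-05). Ndufa3 (-0.96 ± 0.14), Ndufc1 (-0.96 ± 0.13), Ndufa13, also known as GRIM-19 (-0.84 ± 0.16), Ndufa8 (-0.80 ± 0.13) and the X-linked Ndufa1 fell as well. Ndufa1 had 162, 129 and 144 CPM in fl and 100.3, 93.8 and 94.6 CPM in del (log2 difference -0.59 ± 0.14, adjusted p = 0.00403). Ndufa10 (gene number 67273, chromosome 1 from 92439486 to 92473825), an accessory subunit with the fold of a nucleoside kinase, missed the threshold. It was at 417, 364 and 334 CPM in fl and at 404, 416 and 345 CPM in del, groups that overlap throughout (log2 difference 0.06 ± 0.15, adjusted p = 0.729). After removal of the length and GC trend it was called higher (0.52, adjusted p = 0.0151).

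Ndufc2 (gene number 68197, chromosome 7 from 97400003 to 97407800) passed the threshold, but several alternatives ended that call. Its levels were 320.4, 859.8 and 309.5 CPM in fl and 158, 149 and 275 CPM in del (log2 difference -1.35 ± 0.42, adjusted p = 0.0185). The second fl library lay 2.68 times above the higher of the other fl libraries, the highest such ratio among 1686 genes of at least 100 CPM in it, a comparison chosen after the value was seen. Without that library the log2 fold change was -0.69, adjusted p = 0.0579. The call was also lost without del replicate 1 (-1.23, adjusted p = 0.0673) and without del replicate 2 (-1.20, adjusted p = 0.0713). With all libraries kept it was lost with no count filter (-1.40, adjusted p = 0.0821) and after removal of the length and GC trend (-0.73, adjusted p = 0.161). Leaving Ndufc2 out, the summed level of the other members was 8504, 8007 and 7745 CPM in fl and 4679, 4665 and 4466 CPM in del.

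In the distal part of the membrane arm 10 of 10 tested genes fell (median -1.04). Beside them stand 32.6% of all genes and 64% of genes of like transcript length lower. These 10 spanned nearly the whole range of the complex. Ndufb8 (gene number 67264, chromosome 19 from 44548571 to 44555442), a single-pass membrane subunit often used as a marker of assembled complex I in immunoblots, had the largest fall of all members. It was at 369, 420.1 and 394 CPM in fl and at 135, 137 and 127 CPM in del, 2.96-fold lower (log2 difference -1.57 ± 0.13, adjusted p = 1.28e-05). Its exons overlap those of the annotated gene Gm20538 on the same strand, and the sources used here do not say how shared reads were counted. Ndufb2 was at 171, 156 and 161 CPM in fl and 71.6, 78.2 and 66.0 CPM in del (log2 difference -1.18 ± 0.13, adjusted p = 6.06e-05). It and Ndufb9 likewise overlap an annotated gene on the same strand. Ndufb5 (-1.18 ± 0.14), Ndufb6 (-1.14 ± 0.13), Ndufb3 (-1.05 ± 0.15), Ndufb4 (-1.03 ± 0.13) and the X-linked Ndufb11 (-0.96 ± 0.13) lay around the median of the module. The smallest falls were those of 3 soluble or peripheral subunits. Ndufb7, which faces the intermembrane space, had 164, 172 and 158 CPM in fl and 111, 124 and 121 CPM in del (log2 difference -0.47 ± 0.13, adjusted p = 0.00861). Its call was lost in libraries thinned to equal depth (-0.32, adjusted p = 0.101). Ndufb10, also on the intermembrane side, had 102, 105 and 103 CPM in fl and 84.3, 76.7 and 81.4 CPM in del (log2 difference -0.35 ± 0.12, adjusted p = 0.03). Ndufb9, which docks a carrier protein on the membrane arm, had 289, 249.7 and 213 CPM in fl and 179.9, 211 and 163 CPM in del (log2 difference -0.44 ± 0.16, adjusted p = 0.0389), with the lowest fl value just above the highest del value. The Ndufb10 call was lost without any one of 5 libraries (all but del replicate 1, adjusted p up to 0.0863) and the Ndufb9 call without any one of 4 (fl replicates 1 and 2 and del replicates 1 and 3, adjusted p up to 0.106). The Ndufb10 call was lost as well on unadjusted library totals (-0.31, adjusted p = 0.0983) and in libraries thinned to equal depth (-0.37, adjusted p = 0.108). Once the trend with length and GC was taken out both were called higher (Ndufb10 0.46, adjusted p = 0.00969, Ndufb9 0.45, adjusted p = 0.0403).

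A pair of members has roles outside the complex. Ndufab1, the mitochondrial acyl carrier protein, sits in both arms of complex I and also serves mitochondrial fatty acid and lipoate synthesis. It was at 315, 261 and 295 CPM in fl and at 140.4, 122 and 142 CPM in del (log2 difference -1.10 ± 0.14, adjusted p = 0.000137). Ndufa4 was named as a complex I subunit and is now placed in cytochrome c oxidase, complex IV. It was at 1066, 808 and 821 CPM in fl and at 566, 561 and 517 CPM in del (log2 difference -0.71 ± 0.15, adjusted p = 0.00246), so that both genes were lower in every del library. Without Ndufa4, 33 of 35 tested members fell, with a median of -0.96.

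The fall was not even across subunits. To compare subunits with one another, each gene was tested against the summed counts of all 37 members as the library size, which asks whether its share of the subunit transcripts differed between groups. Of the 36 members 5 had a smaller share in del and 6 a larger one. Among all genes tested on this scale 9.66% were lower and 62.5% higher, which follows from the fall of the sum that serves as the library size. With so many genes called, the adjustment over all genes is mild for members near the threshold. No adjustment over the 36 members alone was made. Ndufb8 made up 4.18%, 4.74% and 4.89% of the subunit counts in fl and 2.79%, 2.84% and 2.69% in del (log2 change of the share -0.73 ± 0.15, adjusted p = 0.000844). Ndufv1 went from 1.36%, 1.47% and 1.37% to 1.06%, 0.87% and 0.78% (-0.63 ± 0.16, adjusted p = 0.00382). In the other direction, the share of Ndufa10 was 4.72%, 4.11% and 4.15% in fl and 8.35%, 8.65% and 7.28% in del (0.90 ± 0.16, adjusted p = 0.000231). That of Ndufs8 was 1.52%, 1.44% and 1.45% in fl and 2.53%, 2.42% and 2.16% in del (0.69 ± 0.15, adjusted p = 0.00114), and that of Ndufb10 1.16%, 1.18% and 1.27% and 1.74%, 1.59% and 1.72% (0.49 ± 0.15, adjusted p = 0.00987). For each of these 5 genes the 3 fl shares lay apart from the 3 del shares. How many of all genes did so on this scale was not counted. The call was kept in 10 of 10 other settings, which were other count filters, thinning, a replicate block and the omission of each library. Shares were not tested with the length and GC trend removed. The core genes Ndufv1 and Ndufs8 had shares of 1.40% and 1.47% in fl and of 0.899% and 2.37% in del (group means), a difference between the pair that was not itself tested. Smaller shifts in Ndufv2 (-0.40 ± 0.15, adjusted p = 0.0278), Ndufa11 (-0.40 ± 0.15, adjusted p = 0.0331), Ndufa12 (-0.37 ± 0.15, adjusted p = 0.0434), Ndufb7 (0.36 ± 0.15, adjusted p = 0.0398), Ndufs4 (0.39 ± 0.16, adjusted p = 0.0391) and Ndufb9 (0.40 ± 0.16, adjusted p = 0.0435) were lost in 5 to 8 of those 10 settings. Without fl replicate 2, 2 shares were called smaller and 3 larger, and without del replicate 2 the counts were the same. Without fl replicate 3, 3 were called smaller and 3 larger, and without del replicate 1, 2 and 5.

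**Figure D3:**
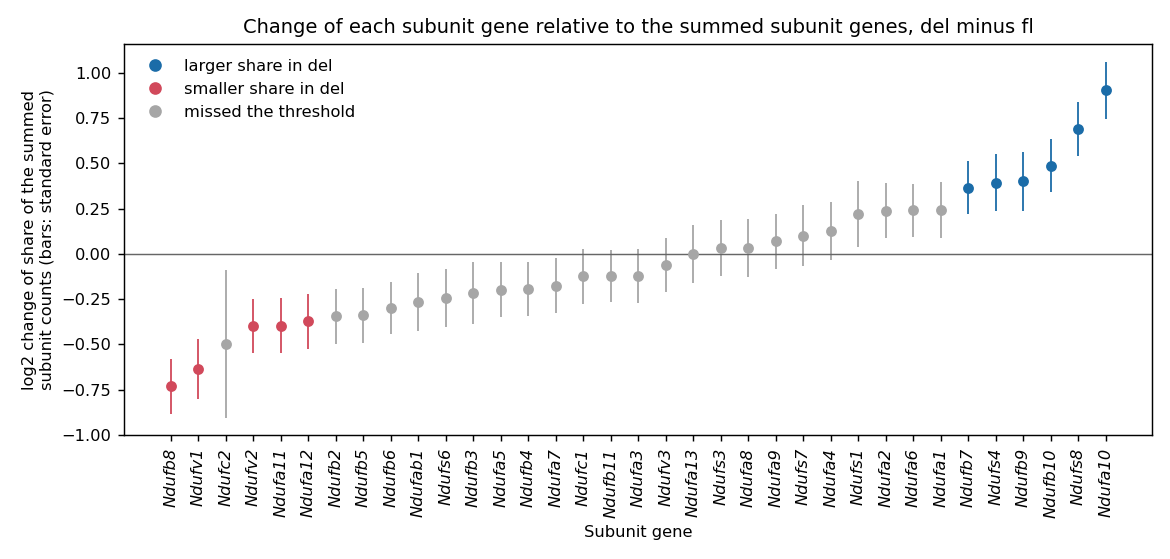
Log2 change (del minus fl) of the share that each of 35 tested genes has of the summed subunit counts, with its standard error, in order of size. Points for a smaller share in del run from -0.73 for Ndufb8 to -0.37 for Ndufa12, those for a larger share from 0.36 for Ndufb7 to 0.90 for Ndufa10, and grey points missed the threshold.

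The start regions of the members at both ends of the order by fold change are shown because most genes of the complex fell and these differed most in how far. Each line gives 250 bases before to 50 bases after the RefSeq start (GRCm38.p6), 5' to 3' on the gene's strand, with matches to any of the motifs NRF1 (GCGCA, any base, then GCGC), GABPA (CCGGAAGT), YY1 (AAGATGGC) and E-box (CACGTG) in capitals, searched on both strands. NRF1, GABPA and YY1 are regulators known for respiratory genes, and the E-box is the core motif of MYC. The largest falls were those of Ndufb8 (chr19:44555393-44555692, minus strand), Ndufv1 (chr19:4012706-4013005, minus strand) and Ndufc2 (chr7:97399753-97400052, plus strand; its fold change without fl replicate 2 was -0.69, a smaller fall than the members' median), and the smallest changes those of Ndufb10 (chr17:24724374-24724673, minus strand), Ndufs8 (chr19:3912725-3913024, minus strand) and Ndufa10 (chr1:92473709-92474008, minus strand).
Ndufb8: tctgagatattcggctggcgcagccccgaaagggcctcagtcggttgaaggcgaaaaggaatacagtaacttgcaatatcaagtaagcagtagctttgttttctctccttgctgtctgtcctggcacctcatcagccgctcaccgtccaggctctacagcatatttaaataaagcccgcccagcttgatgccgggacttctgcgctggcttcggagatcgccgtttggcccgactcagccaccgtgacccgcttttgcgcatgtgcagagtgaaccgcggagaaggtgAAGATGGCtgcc
Ndufv1: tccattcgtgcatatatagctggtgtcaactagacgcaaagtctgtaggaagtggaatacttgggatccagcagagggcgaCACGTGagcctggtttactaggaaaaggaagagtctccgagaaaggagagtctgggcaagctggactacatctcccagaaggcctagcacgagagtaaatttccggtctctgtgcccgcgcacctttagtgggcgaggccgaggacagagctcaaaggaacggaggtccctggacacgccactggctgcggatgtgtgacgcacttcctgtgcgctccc
Ndufc2: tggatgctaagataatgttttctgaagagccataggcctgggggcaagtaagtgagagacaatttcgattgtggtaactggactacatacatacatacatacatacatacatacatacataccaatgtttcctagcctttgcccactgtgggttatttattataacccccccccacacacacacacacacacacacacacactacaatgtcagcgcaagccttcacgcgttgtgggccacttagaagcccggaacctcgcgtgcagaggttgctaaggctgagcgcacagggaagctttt
Ndufb10: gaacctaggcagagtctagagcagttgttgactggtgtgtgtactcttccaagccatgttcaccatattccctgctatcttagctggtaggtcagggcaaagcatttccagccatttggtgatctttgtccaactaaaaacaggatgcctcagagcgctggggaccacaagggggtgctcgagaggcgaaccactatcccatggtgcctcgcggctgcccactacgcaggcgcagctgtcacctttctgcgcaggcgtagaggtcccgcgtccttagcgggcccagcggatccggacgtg
Ndufs8: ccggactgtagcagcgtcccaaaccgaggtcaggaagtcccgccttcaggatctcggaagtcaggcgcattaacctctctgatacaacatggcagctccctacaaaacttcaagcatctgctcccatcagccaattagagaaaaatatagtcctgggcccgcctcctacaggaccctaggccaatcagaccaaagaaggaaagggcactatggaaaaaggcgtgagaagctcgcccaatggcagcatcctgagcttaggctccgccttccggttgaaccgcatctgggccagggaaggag
Ndufa10: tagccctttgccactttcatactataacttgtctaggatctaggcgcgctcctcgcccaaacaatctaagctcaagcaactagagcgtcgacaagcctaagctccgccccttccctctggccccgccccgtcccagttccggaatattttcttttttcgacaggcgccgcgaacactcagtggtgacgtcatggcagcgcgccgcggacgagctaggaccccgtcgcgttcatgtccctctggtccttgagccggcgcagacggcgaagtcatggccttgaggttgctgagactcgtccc

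The YY1 letters stand in the last bases of the Ndufb8 window, past the start, and an E-box stands in that of Ndufv1. None of the 4 motifs matched in the windows of Ndufc2, Ndufb10, Ndufs8 and Ndufa10, which says only that these letters are not there. Over the 33 members with a window in the RefSeq table, 7 (21.2%) held the YY1 letters, against 5.94% of 8313 tested genes, and 7 (21.2%) the NRF1 letters, against 12.9%. These 33 include Ndufs5, which was not tested and is 1 of those with the NRF1 letters. The GABPA letters were in 1 member (3.03%, against 10.4%) and the E-box in 2 (6.06%, against 12.4%). The CCAAT box (CCAAT, not capitalised above) was in 10 members (30.3%, against 43.5%) and had 3 matches in the window of Ndufs8. A match is a description of the letters and not evidence of binding.

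The microRNAs of the deleted cluster act through short seed matches in the 3' untranslated regions of their targets, and their mature sequences are shown because the labels separate the groups by this cluster. Bases 2 to 8, the seed, are in capitals (RefSeq, GRCm38.p6).
miR-17-5p: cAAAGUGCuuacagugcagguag
miR-20a-5p: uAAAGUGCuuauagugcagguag
miR-18a-5p: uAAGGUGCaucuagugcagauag
miR-19a-3p: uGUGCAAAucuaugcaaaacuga
miR-19b-3p: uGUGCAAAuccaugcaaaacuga
miR-92a-3p: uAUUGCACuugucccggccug
The first pair shares a seed, as does the miR-19 pair, which makes 4 seeds. The longest annotated 3' untranslated region of the members was short, with a median of 298 nucleotides over 35 tested members against 1384 over 9850 tested genes. A 7-base match to any of the 4 seeds was present in 5 of these members, against 35.7% of the tested genes, without regard to length. Ndufa10 and Ndufb2 held the miR-17/20a match (GCACTTT, 5.71% of members and 15.3% of tested genes), Ndufab1 and Ndufb4 that of miR-18a (GCACCTT, 5.71% and 10.3%), Ndufa5 that of miR-92a (GTGCAAT, 2.86% and 8%), and no member that of miR-19 (14.1% of tested genes). The Ndufa10 match, on chromosome 1 from 92439403 to 92439409, is shown in its 29-base context because that gene had the highest fold change of the members.
Ndufa10 site: cacccacccctGCACTTTgggtctctcac
This site and those of Ndufb2 and Ndufb4 lie past the 3' end of the RefSeq gene and only in a longer GENCODE transcript. Those of Ndufab1 and Ndufa5 lie inside the RefSeq gene. Ndufb2, with the same match as Ndufa10, fell by 1.18 on the log2 scale, and Ndufa5 fell by 1.04.

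Across the 36 members Spearman's rho between length and log2 fold change was -0.07, and across 10010 genes it was 0.407 (across genes, which share libraries and are not independent replicates). Ndufb8, with the largest fall, has a longest transcript of 2142 nucleotides and Ndufa10, with no fall, one of 2020 nucleotides. The shortest, Ndufa1 with 419 nucleotides, fell less than the members' median. All these lengths are of the longest annotated transcript, and which transcripts were expressed was not examined.

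**Figure D4:**
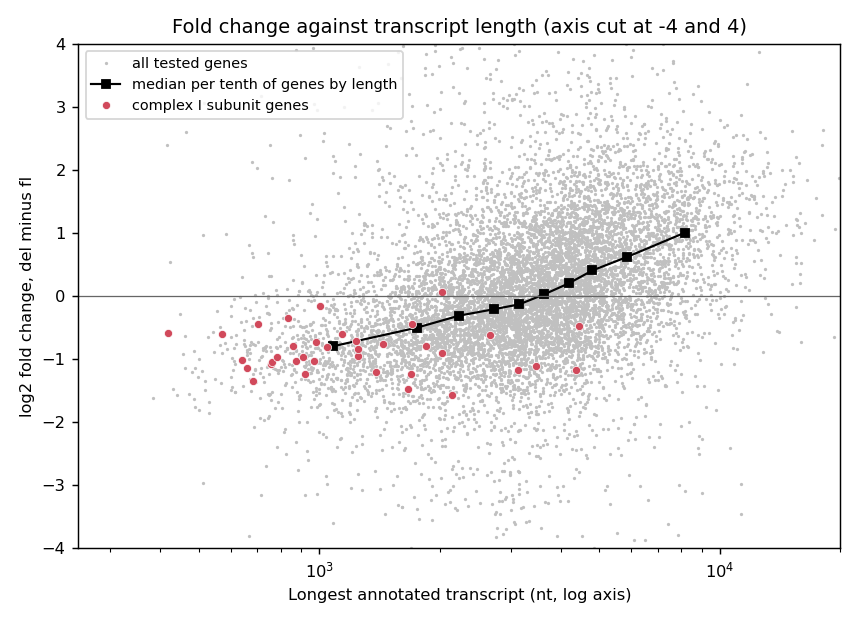
Log2 fold change (del minus fl) against the longest annotated transcript in nucleotides (log axis), with 1 grey point per tested gene, black squares for the median of each of 10 equal bins of genes by length, and red points for the subunit genes. The median is -0.80 in the bin with the shortest transcripts and 1.01 in that with the longest, the subunit genes lie mostly in the lower left, and 514 and 13 of 10010 genes fall outside the vertical and horizontal axes.

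Factors that assemble complex I fell in part. Of 15 tested assembly genes 9 fell and none rose, with a median of -0.48, beside 32.6% of all genes lower and 32.5% higher. Timmdc1, a membrane-arm assembly factor, had 28.6, 33.3 and 33.6 CPM in fl and 13.2, 8.05 and 12.2 CPM in del (log2 difference -1.47 ± 0.19, adjusted p = 0.000119). Nubpl, which supplies iron-sulfur clusters to the complex, had 17.0, 16.1 and 20.7 CPM in fl and 7.11, 6.63 and 6.76 CPM in del (log2 difference -1.38 ± 0.18, adjusted p = 0.000167). Ndufaf7, a methyltransferase, stood at -1.14 ± 0.15 and Ndufaf1 at -1.19 ± 0.16 on the log2 scale. In both, as in Timmdc1 and Nubpl, the 3 del values lay below the 3 fl values. Ndufaf4 (log2 fold change -0.10 ± 0.13), Ecsit (-0.12 ± 0.15), Foxred1 (0.25 ± 0.22), Tmem126b (-0.35 ± 0.20), Ndufaf5 (-0.44 ± 0.18) and Ndufaf2 (0.26 ± 0.35) missed the threshold. Ndufaf2 was at 66.7, 54.4 and 47.4 CPM in fl and at 41.1, 45.5 and 113 CPM in del, with the third del library above all others.

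Most listed nuclear subunits of the other respiratory complexes were lower as well. Of 4 listed complex II genes 3 fell (median -0.71) and of 9 in complex III 9 fell (median -1.13). Of 11 in complex IV 10 fell (median -0.85) and of 15 in complex V 14 fell (median -0.76). None of these listed genes rose, beside 32.6% of all genes lower. The lists do not hold every nuclear subunit gene. Of tested genes outside them, Cox6a2 had a log2 fold change of 2.13, Cox7a1 of -0.87, Atp5md of -2.08 and Atp5mpl of -0.82. After removal of the length and GC trend, 22 rather than 45 of the 54 listed genes of complex I assembly and complexes II to V were lower. Sdhb, the iron-sulfur subunit of complex II, stood at -0.82 ± 0.15, followed by Sdhd (-0.76 ± 0.15) and Sdhc (-0.65 ± 0.13). Uqcr11 (-1.45 ± 0.14), Uqcr10 (-1.19 ± 0.13), the hinge protein gene Uqcrh (-1.13 ± 0.13) and Uqcrq (-1.19 ± 0.14) had the smallest adjusted p in complex III. In complex IV Cox7c had the largest fall (log2 difference -1.94 ± 0.15, adjusted p = 7.08e-06), ahead of Cox8a (-1.32 ± 0.13), the supercomplex factor Cox7a2l (-1.34 ± 0.15) and Cox4i1 (-1.14 ± 0.14). In complex V, the ATP synthase, Atp5j2 (-1.14 ± 0.13), Atp5pb (-0.94 ± 0.13), Atp5g3 (-0.83 ± 0.13) and Atp5g2 (-0.81 ± 0.13) had the smallest adjusted p. Sdha (-0.25 ± 0.16), Cox5a (0.13 ± 0.15) and Atp5h (-0.21 ± 0.18) missed the threshold. Values of fl and del overlapped for 1 of 4 genes in complex II, 1 of 11 in complex IV, 1 of 15 in complex V and 2 of 36 complex I members. Over all genes tested, 35.7% had all fl values above all del values and 34.2% the reverse. No difference between the complexes was tested.

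**Figure D5:**
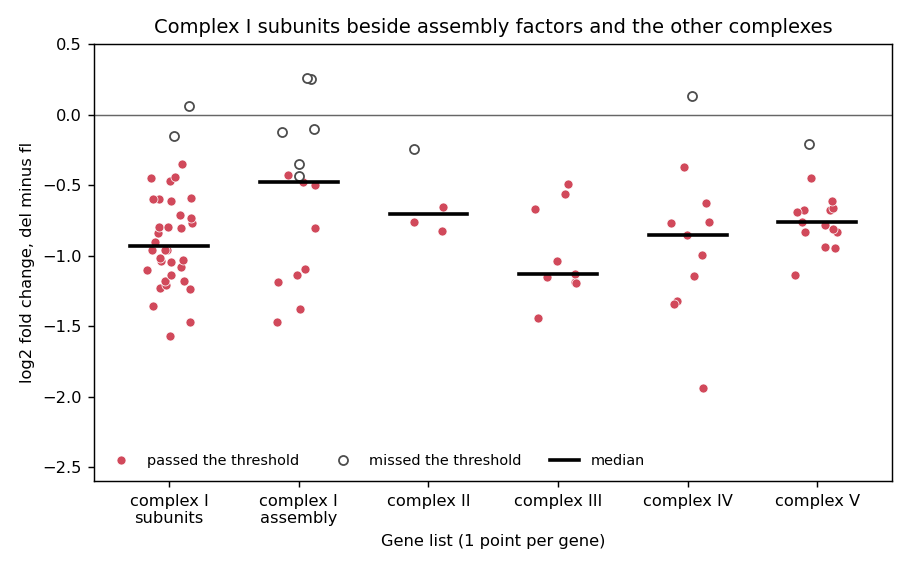
Log2 fold change (del minus fl) of the tested genes of 6 lists, with 1 point per gene, filled where the gene passed the threshold, and a bar for the median of each list. Medians run from -1.13 in complex III to -0.48 among the complex I assembly factors, and complex I subunits have theirs at -0.93.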

How the data were processed

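The authors deposited raw read counts, 1 column for each of 6 libraries. Per the labels' protocols, RNA was primed with barcoded oligo-dT and strand-specific 3' libraries were amplified by PCR. The submitters' processing notes name STAR, HTSeq and mm10. The sources used here give no versions or settings and do not say how reads shared between genes were handled. Of 36 tested members 14 have an exon overlapping a gene on the opposite strand and 3 on the same strand, which leaves their counts less certain. RefSeq symbols (GRCm38.p6) matched 23969 of 24052 gene numbers. Transcript lengths, GC content and 3' untranslated regions of at least 50 nucleotides came from GENCODE M21.

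Groups were compared with edgeR 4.0.16 (R 4.3.3): filterByExpr, TMM factors, robust quasi-likelihood F test, Benjamini-Hochberg adjustment over all genes. Every adjusted p comes from it. Standard errors were derived from the F statistic. Members, lists and tests were chosen with earlier results of these data known. Named genes were chosen by role, by rank of fold change or adjusted p, and by missing the threshold. Promoter motifs and microRNA sites are descriptions with no test. On simulated counts for del against fl (200 of 10114 to 10148 genes changed, 10 draws), 66% of 2-fold and 96.5% of 4-fold changes were recovered and 5.68% of calls were false. At 1.5-fold, 10% were recovered. In the data 65.1% of genes were called, which makes the cutoff on unadjusted p looser than in the simulation. These recovery shares therefore do not carry over to the data. Alternatives were DESeq2 1.42.0, other scalings and filters, thinning to 2121796 counts, a replicate block, leaving out each library, and removal of the length and GC trend. Shares of the summed members were not refitted with DESeq2, with other scalings or with the trend removed. Libraries were amplified by PCR, so the floor of 3 counts covers counting error only. The mitochondrially encoded subunits are not analysed here. A tested member that enters the counts, sums and medians, and a B lineage marker that enters its sum, are not reported here by name.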

Additional observations from a re-analysis of the deposited data

How the results depend on the processing

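The count of lower members stayed between 30 and 34 under every alternative other than removal of the length and GC trend, and no alternative other than that one called a member higher. With the trend removed, 15 members were lower and 4 higher, with a median of -0.34. Of 54 listed genes of complex I assembly and complexes II to V, 22 rather than 45 were lower. The cause of the trend was not tested. Under it the direction turned for Ndufa8 (0.024), Ndufs7 (0.15), Ndufa2 (0.15), Ndufa6 (0.13), Ndufa1 (0.065), Ndufb9 (0.45), Ndufb10 (0.46) and Ndufs8 (0.66, adjusted p = 0.00258). The call was lost with no turn for Ndufc2, Ndufb4, Ndufa7, Ndufa3, Ndufb11, Ndufa13, Ndufs3, Ndufa9, Ndufa4, Ndufs1 and Ndufs4, among members named here. Upper-quartile factors, which shifted the median of all genes to -0.13, gave a member median of -1.06. Leaving out 1 library in turn gave medians from -0.96 to -0.84, with the value nearest 0 without fl replicate 2. Relative to the summed members, 2 to 4 genes were lower and 3 to 5 higher with 1 library left out. With no count filter 3 were lower and 3 higher, and in thinned libraries 3 were lower and 4 higher. A sum without Ndufa4 and Ndufc2, chosen after seeing the data, gave 7 lower and 6 higher. Deviations from the group mean correlated little between libraries with the same replicate number (r = 0.0825, -0.0386 and -0.02). Between libraries with different numbers r ran from -0.145 to 0.167. With 3 libraries per group these values cannot show whether the number marks a pairing. With the replicate block 33 members were lower and none higher (median -0.93), 43 genes of the related lists were lower, and relative to the summed members 2 were lower and 3 higher. Depth was lower in every del library. In libraries thinned to equal depth 31 members were lower and none higher, with a median of -0.87. The calls of Ndufs7 (-0.46, adjusted p = 0.0961), Ndufb7 (-0.32, adjusted p = 0.101) and Ndufb10 were lost there. The part of depth in the results was not otherwise tested. The simulated recovery of 10% at 1.5-fold is for 200 changed genes. Recovery with as many changed genes as in the data was not simulated.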

Other observations

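Lists that serve complex I from outside moved in part with it. Of 11 coenzyme Q synthesis genes 6 fell and 1 rose (median -0.62). Coq3, a methyltransferase of the pathway, had 29.5, 25.7 and 27.9 CPM in fl and 7.64, 9.47 and 10.5 CPM in del (log2 difference -1.59 ± 0.17, adjusted p = 4.39e-05), and Coq9 (-1.38 ± 0.15) and Coq4 (-1.36 ± 0.18) fell as well. Coq8a, an atypical kinase that supports the same pathway, moved the other way from a low level, with 1.26, 0.560 and 0.293 CPM in fl and 4.74, 3.32 and 5.14 CPM in del (log2 difference 2.60 ± 0.44, adjusted p = 0.000684). Of 13 iron-sulfur cluster assembly genes 10 fell and none rose (median -0.58), with the smallest adjusted p for the glutaredoxin gene Glrx5 (-1.45 ± 0.13), Isca2 (-1.27 ± 0.16), Nfu1 (-0.94 ± 0.12) and the cysteine desulfurase gene Nfs1 (-1.08 ± 0.14). The scaffold gene Iscu was at 31.2, 39.1 and 33.6 CPM in fl and 44.5, 45.0 and 41.1 CPM in del (log2 difference 0.33 ± 0.14, adjusted p = 0.0649). Among 8 tested genes that carry reducing equivalents of NADH between cytosol and mitochondria 6 fell and 1 rose (median -0.56). The transaminase genes Got1 (-1.70 ± 0.14) and Got2 (-1.31 ± 0.16) and the malate dehydrogenase gene Mdh1 (-1.01 ± 0.13) of the malate-aspartate shuttle fell, and Gpd1l rose (log2 difference 0.42 ± 0.15, adjusted p = 0.0367). Among all genes 32.6% were lower and 32.5% higher.

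Of 11 tested regulators of respiratory genes 3 fell and 1 rose (median -0.10). Among all genes 32.6% were lower, so this count of falls is near the background. The coactivator gene Ppargc1b rose from 12.5, 10.5 and 8.50 CPM in fl to 37.7, 42.6 and 47.3 CPM in del (log2 difference 2.01 ± 0.18, adjusted p = 1.52e-05), while most respiratory subunit genes were lower. Gabpa and Gabpb1, which encode the partners of an ETS-type activator, fell (-0.69 ± 0.13 and -0.85 ± 0.21), as did the nuclear receptor gene Esrra (-0.47 ± 0.16). Nrf1 (0.20 ± 0.18), Yy1 (0.14 ± 0.13), Tfam (-0.09 ± 0.20) and Myc (-0.15 ± 0.15) missed the threshold. Ndufa4l2, a relative of Ndufa4 known as a target of the hypoxia-inducible factor, had 0 counts in every library. The pseudogene row Ndufs5-ps had 10, 26 and 10 counts in fl and 4, 1 and 3 in del, while Ndufs5 itself had 1 count in all.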
